A study of Mus musculus with 2 samples.

Results

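The nuclear genes for respiratory complexes II to V and cytochrome c were examined in mouse liver with and without adiponectin. Members were chosen by gene symbol alone, as the rows named Sdha to Sdhd, those beginning with Uqcr or Atp5, the Cox4 to Cox8 genes, Cyc1 and Cycs, without symbols that mark a pseudogene. The rule took 45 of the 13326 gene symbols in the tables. They comprise 4 genes of complex II, 9 of complex III, 12 of complex IV, 16 of complex V, and the cytochrome c gene. The remaining 3 symbols match the rule without coding for a respiratory subunit, namely Atp5s, Atp5sl and Cox4nb, the last of which is a neighbour of Cox4i1 that RefSeq now lists as Emc8. The row Atp5l2 was counted with complex V by its symbol, although RefSeq lists it as a pseudogene of Atp5l.

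The livers came from male C57BL/6J mice aged 12 weeks that had been fasted overnight. The animals were either wild type or Adipoq-/-, that is, without the gene for adiponectin, a hormone secreted by fat cells. RNA from 9 to 10 mice of a genotype was pooled into 1 library, so the comparison rests on 2 libraries. No spread between animals can be had from them, and no test across samples was possible. Adipoq itself was not analysed here, and the deleted gene thus gives no check of the 2 labels.

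Complexes II, III and IV pass electrons from succinate and from reduced coenzyme Q to oxygen. Complexes III and IV pump protons across the inner mitochondrial membrane as they do so, and complex V, the ATP synthase, uses the return flow of protons to make ATP. Complex II is encoded wholly in the nucleus, whereas complexes III, IV and V also contain subunits encoded in the mitochondrial genome. The nuclear share includes a few large catalytic or scaffold proteins and many small proteins, most of which bring no catalytic centre of their own. In hepatocytes this chain supplies the ATP for glucose and urea synthesis during a fast.

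Levels are FPKM as deposited, that is, sequenced fragments divided by the length of the transcript and by the number mapped in the library. The ratio used is log2((knockout FPKM + 1) / (wild-type FPKM + 1)), and its median over the 11985 genes that reached 1 FPKM in either library was -0.15. Ratios below are relative to that median unless the deposited FPKM are named, and a relative log2 ratio of 0 is therefore a gene that moved with the middle of the transcriptome. All 45 members passed the minimum of 1 FPKM. Read counts were not used here, so the depth behind each value is unknown. The hepatocyte markers albumin (Alb, 17522 and 14031 FPKM in wild type and knockout) and Apoa2 (25947 and 25378) were abundant in both libraries. Of 16 muscle markers only Acta1 and Mylpf had a row, at a summed 4.60 and 4.33 FPKM.

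Taken as a group, the respiratory genes were higher in the knockout library than most genes. Their median relative log2 ratio was 0.38, with a range from -0.28 for Sdha to 0.73 for Atp5j, and 39 of 45 lay above the all-gene median. On the deposited FPKM, 32 of 45 members (71.1%) were higher in the knockout library, against 33.1% of all genes tested. A relative log2 ratio of at least 0.32 was reached by 26 members (57.8%), against 19.8% of all genes, and 0 members were as far below the all-gene median, against 11.7%. At 1.5-fold only Atp5j, Cox4i1, Uqcr10 and Atp5j2 were higher, a share of 8.89% that is close to the 6.73% of all genes. No member was 1.5-fold lower, which 2.61% of all genes were. The shift was therefore small and spread over many members rather than carried by a few. It lay mainly in the 31 subunits with under 750 coding bases (median 0.43), while the 10 longer ones had a median of 0.00. That limit was chosen after the values were seen, and abundant genes outside the list showed a like order by length, as given below. Summed over the members, the tables held 18806 FPKM in wild type and 22168 in knockout, which is 2.36% and 2.49% of all FPKM. The members' direction depended on scaling, and with the libraries set to equal summed FPKM 27 of 45 were higher and their median log2 ratio was 0.07.

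**Figure D1:**
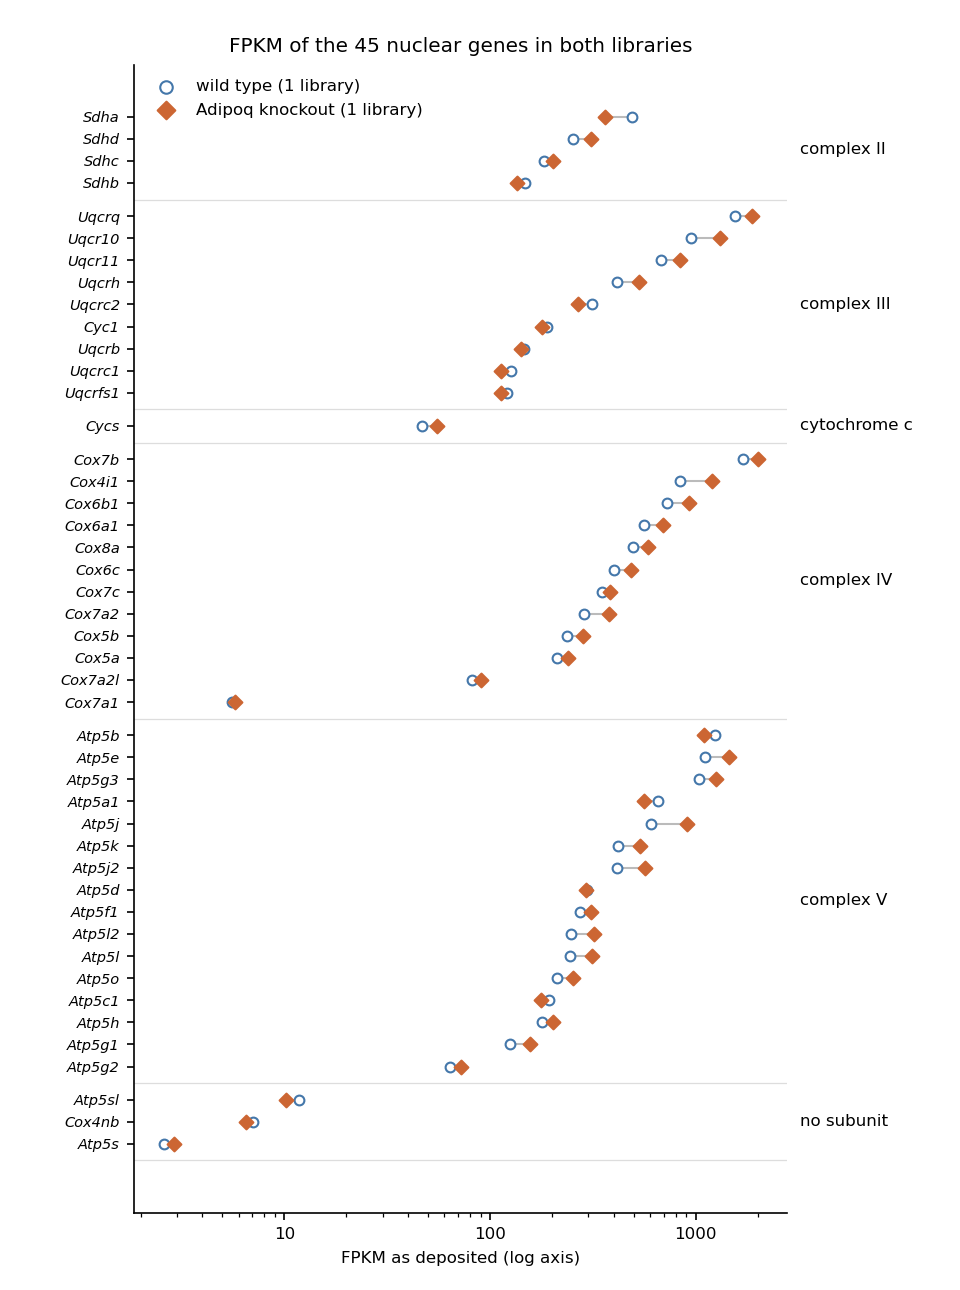
FPKM as deposited (horizontal log axis) of each of the 45 genes in the wild-type library (open circles) and the Adipoq knockout library (filled diamonds), grouped by complex and ordered by wild-type level. Diamonds lie to the right of circles for 32 genes, while the large subunits such as Sdha, Uqcrc2, Atp5b and Atp5a1 show the opposite order.

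Complex II, succinate dehydrogenase, divided between its soluble and its membrane subunits. Sdha, the flavoprotein that oxidises succinate, stood at 488 FPKM in wild type and at 361 in knockout. This was 0.74-fold as deposited and the lowest relative log2 ratio of all members (-0.28). Sdhb, the iron-sulfur subunit that passes the electrons on, was 149 and 135 FPKM (0.01 relative to all genes). The membrane anchors that carry the coenzyme Q site had the opposite order, with Sdhc at 183 and 202 FPKM (0.29). Sdhd stood at 252 in wild type and 309 in knockout (0.44). The level of Sdhd relative to Sdha thus went from 0.52 in wild type to 0.85 in knockout. FPKM is a value per length, but ratios between the libraries also fell with coding length over all genes. With that trend subtracted as a running median of all genes over coding length, the relative log2 ratio was 0.25 for Sdhd and -0.14 for Sdha.

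Complex III, the cytochrome bc1 complex, differed between its large and its small subunits. The Rieske iron-sulfur protein gene Uqcrfs1 was 121 FPKM in wild type and 113 in knockout, and Cyc1, encoding cytochrome c1, was 189 and 178. The large core proteins, which face the matrix, were Uqcrc1 at 127 and 113 and Uqcrc2 at 313 and 267. All 4 of these genes were lower in the knockout library as deposited and lay within 0.08 of the all-gene median on the relative log2 scale. The small accessory subunits were, apart from Uqcrb, more abundant and higher in the knockout library as deposited. Uqcrq was the second most abundant of all members at 1549 and 1881 FPKM (0.43). Uqcr10 was 944 and 1309 FPKM, the highest relative log2 ratio in the complex (0.62). Uqcr11 was 679 and 841 FPKM (0.46), and the hinge protein gene Uqcrh, whose product helps cytochrome c dock on cytochrome c1, was 416 and 529 (0.50). Uqcrb was the exception among the small subunits at 146 and 141 FPKM (0.09). The level of Uqcr10 was 3.01 times that of Uqcrc2 in wild type and 4.90 times in knockout. After the running median over coding length the large and small subunits overlapped. The large ones ran from 0.00 (Uqcrc2) to 0.08 (Uqcrc1), and the small ones from -0.22 (Uqcrb) to 0.26 (Uqcr10), with Uqcrq at 0.07.

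Cycs, the somatic cytochrome c gene, was 46.7 FPKM in wild type and 55.2 in knockout, a relative log2 ratio of 0.39. Cytochrome c carries electrons from complex III to complex IV. Its transcript was listed at 0.25 times the level of Cyc1 in wild type and 0.31 times in knockout.

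The catalytic subunits of complex IV, cytochrome c oxidase, are encoded in mitochondria, and the nuclear genes code for the small subunits around them. All 12 rows, Cox7a2l included, were higher in the knockout library as deposited. They lay between 0.19 and 0.66 relative to all genes, with a median of 0.40. Under equal summed FPKM that median was 0.09, with 9 of 12 above 0. After the running median over coding length it was 0.07, with a range from -0.15 for Cox7a1 to 0.48 for Cox4i1. Cox4i1, the ubiquitous form of the subunit at which ATP regulates the enzyme, was 838 FPKM in wild type and 1193 in knockout (0.66). Cox7b was the most abundant member of all at 1687 and 1996 (0.39). Cox6b1, on the side facing cytochrome c, was 724 and 930 FPKM (0.51), and Cox6a1, the form of subunit 6a found in liver, was 559 and 692 (0.46). Cox8a was listed at 497 and 585 FPKM (0.38), Cox6c at 399 and 486 (0.43), and Cox7c at 350 and 383 (0.28). The matrix-side subunits Cox5a and Cox5b were close to each other, at 212 and 239 FPKM (0.32) and at 236 and 283 (0.41).

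The isoforms of subunit 7a differed widely in level. Cox7a2, the liver form, was 287 FPKM in wild type and 378 in knockout (0.55). Cox7a2l, encoding a protein related to subunit 7a, was 81.9 and 90.6 FPKM (0.29). Cox7a1, the form of heart and skeletal muscle, was 5.59 and 5.78 FPKM (0.19). It made up 1.91% of the summed Cox7a1 and Cox7a2 level in wild type and 1.51% in knockout. The tissue-restricted forms Cox4i2, Cox6a2, Cox6b2, Cox8b and Cox8c were not analysed here.

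Complex V, the ATP synthase, differed between its catalytic head and its peripheral stalk and membrane subunits, with the central stalk divided. The head genes Atp5a1 (alpha) and Atp5b (beta), whose products form the catalytic sites, were lower in the knockout library as deposited. Atp5a1 stood at 653 and 559 FPKM (-0.07), and Atp5b at 1240 and 1095 (-0.03). The level of Atp5b was 1.90 times that of Atp5a1 in wild type and 1.96 times in knockout, so the pair kept its proportion. Of the central stalk that turns inside the head, Atp5c1 (gamma) was 192 and 177 FPKM (0.03) and Atp5d (delta) 295 and 292 (0.14). The smallest stalk subunit, Atp5e (epsilon), was 1104 and 1444 FPKM (0.54). Atp5e was thus listed at 0.89 times the level of Atp5b in wild type and 1.32 times in knockout. After the running median over coding length Atp5a1 was 0.03, Atp5b 0.09 and Atp5e 0.17. The peripheral stalk and membrane genes then ran from 0.08 (Atp5g2) to 0.41 (Atp5j), so the parts lay closer together.

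The peripheral stalk, which holds the head still against the rotor, had 4 of 4 genes higher in the knockout library as deposited. Atp5j, encoding coupling factor 6, was 606 FPKM in wild type and 904 in knockout, 1.49-fold as deposited and the highest relative log2 ratio of all members (0.73). Atp5f1 (subunit b) was 273 and 310 FPKM (0.33), Atp5h (subunit d) 180 and 203 (0.32), and Atp5o, which encodes the oligomycin sensitivity protein at the top of the stalk, 212 and 253 (0.40). Atp5j overlaps Gabpa on the opposite strand of chromosome 16 in the GRCm38 annotation. Gabpa encodes the DNA-binding part of GABP, a factor known for activating respiratory genes, and was 15.9 FPKM in wild type and 8.40 in knockout (-0.70). Of the 36-base stretches in the Atp5j transcript, 14.7% also stand in a Gabpa transcript on either strand. No statement on strand was found in the sources used here, and reads from the overlap cannot be told apart without it.

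The proton-carrying ring of the ATP synthase is made of subunit c, which 3 genes encode with different import sequences. Atp5g3 was the main one at 1039 FPKM in wild type and 1248 in knockout (0.42). Atp5g1 was 125 and 157 FPKM (0.47), and Atp5g2 was 64.1 and 72.3 (0.32). The makeup was nearly the same in both libraries, with Atp5g3 at 84.6% and 84.5% of the sum, Atp5g1 at 10.2% and 10.6%, and Atp5g2 at 5.22% and 4.89%. The other membrane subunits help to pair ATP synthases along the cristae. Atp5j2 (subunit f) was 414 and 568 FPKM (0.61), Atp5k (subunit e) 417 and 538 (0.52), and Atp5l (subunit g) 243 and 313 (0.51). A pair of membrane subunits that the symbol rule does not take, Usmg5 (278 and 276 FPKM, 0.14) and 2010107E04Rik (382 and 411, 0.26), were less far above the all-gene median.

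The 3 matched symbols that are no subunits were all rare. Atp5sl was 11.8 FPKM in wild type and 10.2 in knockout (-0.03), Cox4nb 7.06 and 6.54 (0.05), and Atp5s 2.60 and 2.90 (0.27). These levels lie far below those of nearly all subunits, of which Cox7a1 alone was under 10 FPKM.

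Within the chain, the ratio followed the size of the subunit. Coding length is the length of the protein-coding part of 1 transcript per gene in GENCODE M21, and 44 of 45 members had one. Subunits were divided at 750 coding bases, a limit chosen after the values were seen. All 31 small subunits, cytochrome c included, lay above the all-gene median, with a median relative log2 ratio of 0.43. The 10 large ones, Sdha, Sdhb, Uqcrc1, Uqcrc2, Uqcrfs1, Cyc1, Atp5a1, Atp5b, Atp5c1 and Atp5f1, were split 5 above and 5 below, with a median of 0.00. As deposited, 29 of the 31 small and 1 of the 10 large subunits, Atp5f1, were higher in the knockout library. With the libraries set to equal summed FPKM these counts were 25 and 1. Across the 44 members the relative log2 ratio had a Spearman rho of -0.71 with coding length. Across the 41 subunits with cytochrome c, without the 3 other symbols, it was -0.66. The ratio also rose with abundance, with a rho of 0.49 between it and mean FPKM across all 45 members. The members share both libraries and are not independent replicates.

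Other genes showed the same order by length. Over all 9595 genes with a coding length the rho was -0.39. Genes outside the respiratory list with fewer than 300 coding bases and a mean of at least 100 FPKM had a median relative log2 ratio of 0.45 (56 genes), next to 0.48 for the 14 members of that size. From 300 to under 750 bases the medians were 0.37 for 265 such genes and 0.39 for 19 members. From 750 to under 1500 bases they were 0.02 for 287 genes and 0.02 for 8 members, and from 1500 bases on -0.12 for 137 genes and -0.07 for 3 members. Without the minimum of 100 FPKM the other genes had lower medians than the members, at 0.36 for 228 genes under 300 bases and 0.16 for 2013 genes from 300 to under 750. For the longer classes these were -0.03 for 3453 genes and -0.13 for 3857. Abundant genes of the same size were thus closer to the respiratory genes than all genes of that size were. Subtracting a running median over coding length left a median of 0.08 for the members, from -0.22 for Uqcrb to 0.48 for Cox4i1, and 35 of 44 lay above 0. After that step Cox4i1 (0.48), Atp5j (0.41), Atp5o (0.31) and Atp5f1 (0.28) were highest, and Uqcrb (-0.22), Cox7a1 (-0.15) and Sdha (-0.14) lowest.

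**Figure D2:**
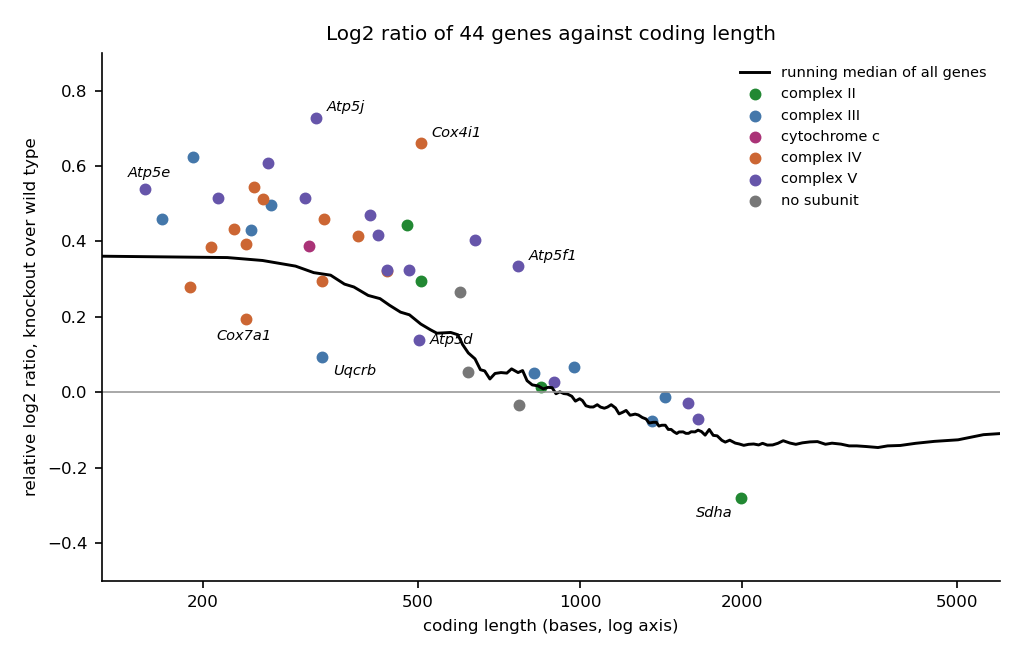
Relative log2 ratio of knockout over wild type (vertical axis) against coding length in bases (horizontal log axis) for the 44 genes with a coding length, coloured by complex, with the running median of all genes, taken over 250 neighbours in length on either side, as a black line. Of the 31 small subunits 26 lie above the line and the large ones follow its fall toward and below 0, with Uqcrb and Sdha under the line and Atp5j and Cox4i1 farthest above it.

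The mitochondrially encoded partners also lay above the all-gene median. Of these, 6 of 6 lay above the all-gene median, with a median relative log2 ratio of 0.30. With equal summed FPKM 3 of 6 were above 0 (median -0.017). After the running median over coding length 5 of 6 were, with a median of 0.35 beside 0.08 for the nuclear genes. That gap was absent over transcript length, where 4 of 6 were above 0 and the medians were 0.105 and 0.102. The mitochondrial transcripts are almost wholly coding, as in mt-Co1 with 1542 coding bases of 1545. mt-Co3 was 13011 FPKM in wild type and 16839 in knockout (0.52), mt-Co2 7988 and 9877 (0.46), and mt-Co1, the catalytic subunit of complex IV, 15535 and 16953 (0.28). mt-Cytb of complex III was 10507 and 11431 FPKM (0.27). The ATP synthase subunits mt-Atp6 and mt-Atp8 were 5966 and 6672 (0.31) and 2453 and 2638 (0.26). These transcripts were listed far above their nuclear partners, with mt-Co1 at 18.5 times Cox4i1 in wild type and 14.2 times in knockout.

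Complex I, which feeds electrons from NADH into the same chain, had a like median. Its 37 nuclear rows were taken by symbol alone, without a check that each codes for a subunit of complex I. Of these, 33 lay above the all-gene median (median 0.37). Ndufa3 was highest (470 and 758 FPKM, 0.84), followed by Ndufa1 (514 and 736, 0.67) and Ndufb9 (657 and 919, 0.64). The size order was present there too, with 29 of 30 small and 4 of 7 large rows above the all-gene median. The small row below it, Ndufa4l2, named after its values were seen, was near the minimum at 1.66 and 1.31 FPKM (-0.05). Mitochondrial ribosomal proteins had 65 of 76 genes above it (median 0.28), cytosolic ribosomal proteins 79 of 80 (0.55) and proteasome subunits 28 of 37 (0.15). After the running median over coding length these medians were 0.15 for complex I, 0.12 for the mitochondrial ribosome, 0.34 for the cytosolic ribosome and 0.17 for the proteasome, beside 0.08 for complexes II to V. Over transcript length they were 0.06, 0.11, 0.28 and 0.07, beside 0.10, so the order depended on the length used.

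Assembly factors, which build the complexes without staying in them, centred on the all-gene median. Of 26 measured, 12 lay above the all-gene median and 14 below (median -0.04). Cox16 was 17.0 FPKM in wild type and 24.7 in knockout (0.66), while Sco2, a copper chaperone of complex IV, was 49.8 and 34.4 (-0.37). Cox17, which hands copper to such chaperones, was 85.5 and 97.3 FPKM (0.34). General mitochondrial genes had a median of -0.01, with 9 of 20 above. The chaperonin gene Hspd1 was 58.1 and 33.5 FPKM (-0.63), the inner membrane import channel gene Timm23 74.2 and 98.9 (0.56), and Opa1, of inner membrane fusion, 17.9 and 11.5 (-0.44). The assembly factors and general mitochondrial genes also have longer coding sequences than the members, with list medians of 867 and 912 bases against 415.5. After the running median over coding length the assembly factors had a median of -0.067, with 8 of 26 above 0. The general mitochondrial genes then had -0.0073, with 9 of 20 above 0, beside 0.084 and 35 of 44 for the members.

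Regulators of nuclear respiratory genes were long, with a median coding length of 1362 bases. The 16 tested regulators, Gabpa included, had a median of -0.07, and 7 of them lay above the all-gene median. After the running median over coding length their median was 0.0056, and 9 of 16 were above 0. Nrf1, a factor that binds many respiratory promoters, was 3.45 FPKM in wild type and 2.76 in knockout (-0.09), Esrra 6.56 and 6.03 (0.04), and Tfam, which packs and transcribes the mitochondrial genome, 23.0 and 21.4 (0.05). Sp1 was 6.10 and 3.52 FPKM (-0.50). The coactivator gene Ppargc1a, known as a driver of mitochondrial biogenesis, was 0.636 and 0.335 FPKM, under the minimum in both libraries.

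**Figure D3:**
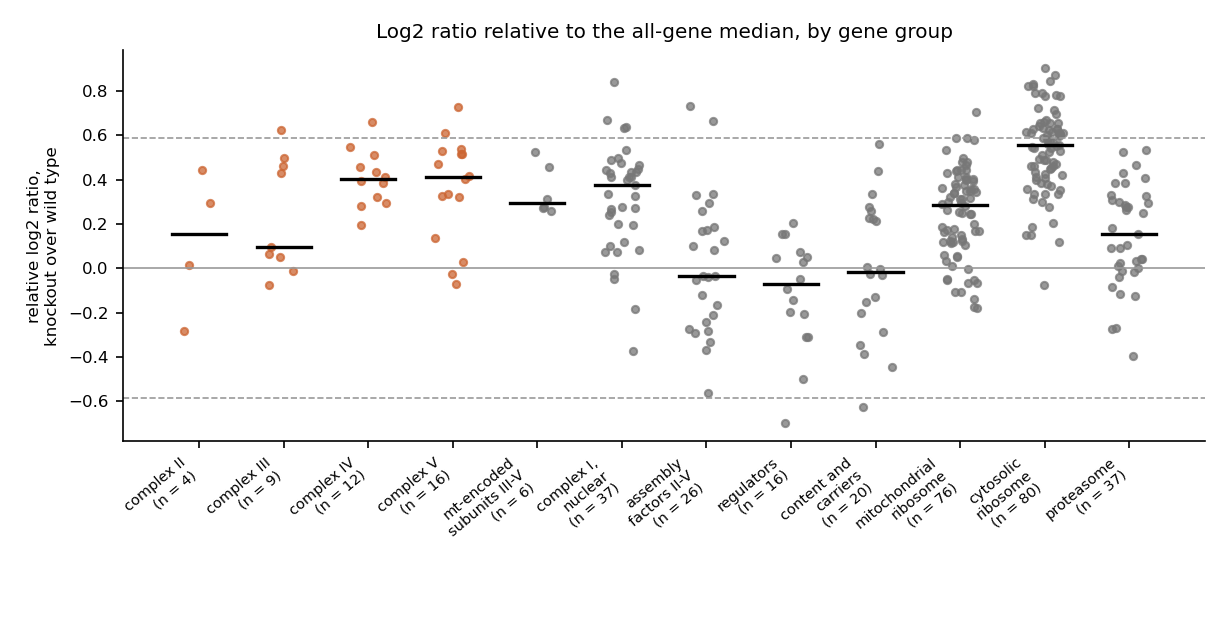
Relative log2 ratio of knockout over wild type (vertical axis) for each gene of complexes II to V (orange) and of the comparison lists (grey), with the list median as a black bar, the all-gene median as a solid line at 0 and 1.5-fold as dashed lines. Complexes IV and V sit near 0.40, complexes II and III spread around lower medians, and assembly factors, regulators and general mitochondrial genes centre near 0.

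Markers of other cells were also read. Kupffer cell markers had 9 of 10 rows above the all-gene median, with a summed 258 FPKM in wild type and 308 in knockout. As deposited 7 of 10 were higher in the knockout library. Most of the rise in the sum was Lyz2 (72.5 and 116 FPKM), while Clec4f, the next most abundant, was 52.0 and 48.9. Erythroid markers had 5 of 5 above the all-gene median (median 0.34), at a summed 11823 and 13493 FPKM. For those with a known length, the median was 0.13 after the running median over coding length and 0.0026 over transcript length. Adipocyte markers had 4 of 5 below the all-gene median, at a summed 216 and 142 FPKM. Most of that sum was Elovl3 (188 and 127 FPKM), while Fabp4 was 9.61 and 11.0. The sum thus mainly followed 1 gene and is no measure of fat cells, as the cells expressing Elovl3 were not identified. Cfd (13.3 and 2.01 FPKM), Cidec (4.73 and 0.913) and Cidea (1.03 and 0.146), named after their values were seen, were lower in the knockout library by larger folds. Endothelial markers were split 3 and 3, at 51.7 and 54.5 FPKM. Their part in the ratios of the respiratory genes was not tested, and in pooled tissue fewer cells of a type and less RNA per cell cannot be told apart.

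Several members share sequence with copies that have rows of their own, which limits what their levels mean. In the GENCODE M21 transcripts, 16 members had 20% or more of their 36-base stretches in a transcript of another gene, and 12 had none at all. For 12 members such a copy was itself listed, in 24 pairs, and in 17 pairs its wild-type FPKM was between 0.5 and 2 times that of the member. Atp5l and Atp5l2 were listed at 243 and 246 FPKM in wild type and at 313 and 320 in knockout. Gm11273 (237 and 288 FPKM) stood beside Cox5b (236 and 283), and Gm12231 (281 and 315) beside Atp5f1 (273 and 310). Gm10175 and Gm10231, both copies of Atp5g2, carried the identical values 74.2 and 87.4. The rows for Atp5f1, Atp5g2, Atp5h, Atp5l, Atp5l2, Atp5o, Cox5b, Cox6c, Cox7a2l, Cox7c, Cycs and Uqcrb are therefore uncertain as levels of the functional gene. Cox5a (42.6% shared), Uqcrc2 (25.4%), Atp5j (21.4%) and Cox6a1 (20.3%) had no listed copy at the 20% limit. Their levels are uncertain too, as reads from unlisted sequences were not separated. Uqcrb, the small subunit with the lowest ratio, had 3 listed copies, among them Gm2962 at 299 and 303 FPKM. The 20 members with under 5% of shared stretches had a median relative log2 ratio of 0.23 and 15 of them lay above the all-gene median. The 9 members from 5% to under 20% had a median of 0.47, and the 16 with 20% or more 0.36. After the running median over coding length the medians of these 3 classes were 0.08, 0.16 and 0.08.

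**Figure D4:**
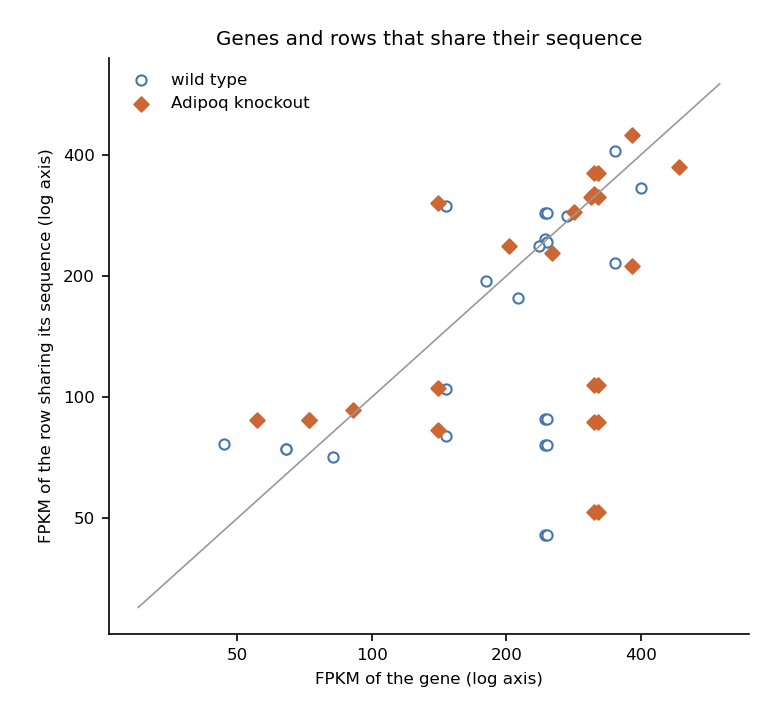
FPKM of a listed row that holds at least 20% of the 36-base stretches of a respiratory gene (vertical log axis) against the FPKM of that gene (horizontal log axis) in wild type (open circles) and knockout (filled diamonds), for 24 pairs, with equality as a grey line. Many pairs lie along the line, among them Atp5l with Atp5l2 and Cox5b with Gm11273.

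The sign of the medians of complexes II and III depended on the scaling. Their medians relative to the all-gene median were 0.15 and 0.09. With equal summed FPKM they were -0.16 and -0.22, beside 0.09 for complex IV and 0.10 for complex V.

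**Figure D5:**
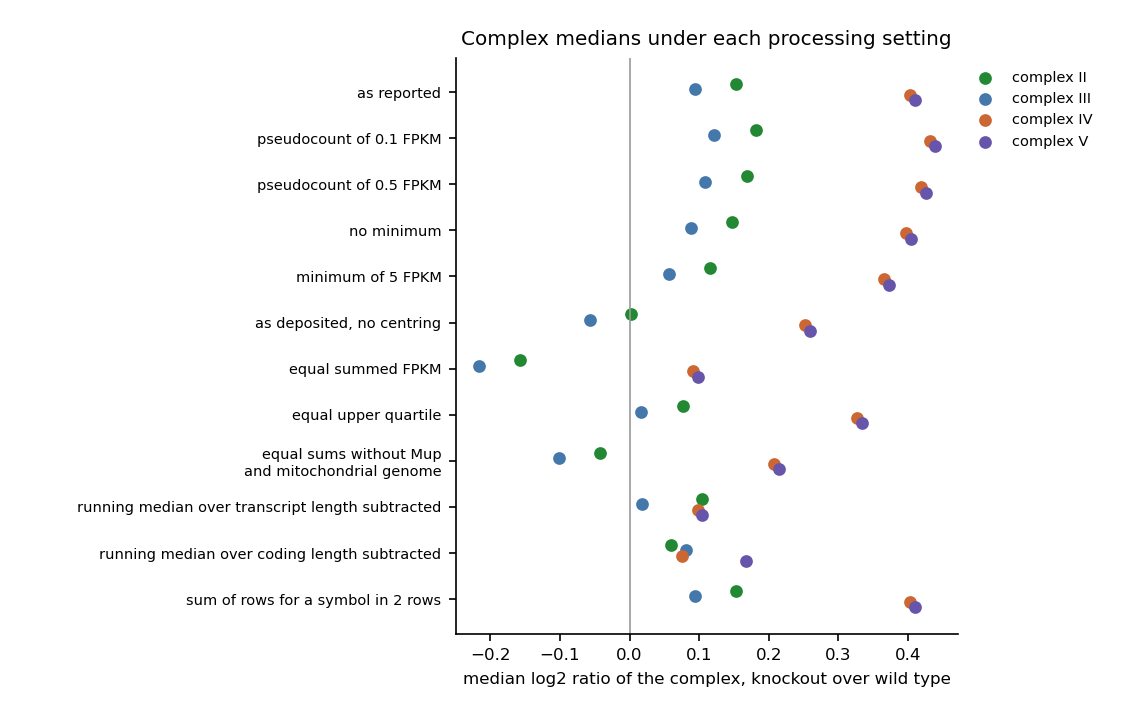
Median log2 ratio of knockout over wild type (horizontal axis) for complexes II, III, IV and V under each processing setting (rows). Complexes IV and V stay above 0 in all 12 settings, while complex III falls below 0 in 3 and complex II in 2 of them, all of these with a scaling other than the all-gene median.

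Promoters of respiratory genes are known for sites of NRF1 and of GABP, an ETS factor, and for lacking a TATA box. The promoters shown here hold such matches in different combinations, or none. They belong to genes with relative log2 ratios from 0.39 (Cycs) to 0.62 (Uqcr10), and no gene with a low ratio is among them. Sequences are from RefSeq (GRCm38.p6), 120 bases ending just before the transcription start, on the strand of the gene, with matches to GCGCANGCG (NRF1) or CCGGAAG (ETS) on either strand in capitals. Cycs (chr6:50566570-50566689, minus strand) has an NRF1 match whose first base is at -61. Cox6a1 (chr5:115348959-115349078, minus strand) has an NRF1 match near the upstream end of the printed stretch and an ETS match at -16. The ETS match of Atp5e (chr2:174464102-174464221, minus strand) is at -102, and that of Uqcrh (chr4:116075071-116075190, minus strand) at -10. Uqcr10 (chr11:4704345-4704464, minus strand), with the highest ratio in complex III, has no match to either.
Cycs: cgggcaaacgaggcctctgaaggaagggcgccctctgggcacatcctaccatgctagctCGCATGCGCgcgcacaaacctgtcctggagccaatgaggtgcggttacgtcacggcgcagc
Cox6a1: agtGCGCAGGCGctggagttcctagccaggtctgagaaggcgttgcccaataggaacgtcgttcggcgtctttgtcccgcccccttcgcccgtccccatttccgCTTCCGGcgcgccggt
Atp5e: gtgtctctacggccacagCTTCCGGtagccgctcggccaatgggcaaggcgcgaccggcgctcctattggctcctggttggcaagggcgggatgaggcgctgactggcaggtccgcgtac
Uqcrh: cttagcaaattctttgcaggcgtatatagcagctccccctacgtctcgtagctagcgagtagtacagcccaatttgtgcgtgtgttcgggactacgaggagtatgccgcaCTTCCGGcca
Uqcr10: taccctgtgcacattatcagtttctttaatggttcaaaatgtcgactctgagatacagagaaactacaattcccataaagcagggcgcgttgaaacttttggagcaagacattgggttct

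Over windows from 250 bases before to 50 after the start, 33 members had at least 1 sequence. NRF1 letters were found in 13 of these 33 genes (39.4%), against 15.9% of the 7817 tested genes with a window. ETS letters were found in 12 (36.4%), against 21.7%, and 6 genes held both. Sdha alone held 3 NRF1 matches that do not overlap, and its relative log2 ratio was the lowest of all members (-0.28). AAGATGGC, part of the YY1 motif, was found in 3 genes (9.09%, against 5.87%), GGGCGG, an Sp1 motif, in 11 (33.3%, against 67.4%) and TATAAA in 1 (3.03%, against 9.47%). For NRF1 letters the median relative log2 ratios were 0.40 for the 13 members with a match and 0.39 for the 20 without. The ranges overlapped, from -0.28 to 0.52 with a match and from -0.03 to 0.73 without. For ETS letters the medians were 0.48 for 12 and 0.32 for 21 members, and 0.16 and 0.08 after the running median over coding length. These are counts of letters, and binding was not measured.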

How the data were processed

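Liver RNA was sequenced in 2 libraries, 1 per genotype, each pooled from 9 to 10 mice. The authors deposited FPKM per gene. TopHat, Cuffdiff, mm9 and NCBIM37 are named per the submitters' processing notes, while versions, annotation and strand were not given in the sources used here. A symbol in 2 rows (26 symbols) was taken at its higher mean. Ratios used a pseudocount of 1 FPKM and a minimum of 1 FPKM in at least 1 library, and were centred on the median of 11985 genes. Fold changes on this scale understate low genes. Depth is unknown: at most 5 of 1303 low genes had the same log2 ratio at 3 decimals, and whole reads could not be recovered. With 1 library per genotype no test was run. Lengths and shared 36-base stretches came from GENCODE M21 transcripts, and promoters from RefSeq GRCm38.p6. A running median over 250 genes of neighbouring length on either side was subtracted where stated. The calculation was tested on simulated data. The rule allowed naming every member, the 3 genes of each other list farthest from the all-gene median with at least 5 FPKM, all genes of lists of 6 or fewer, regulators and tissue isoforms, and the 2 most abundant markers, and not all of these are named. Members and lists were chosen with earlier results of these data known. Python 3.11.15, numpy 2.4.6, pandas 2.3.3, scipy 1.17.1 and matplotlib 3.10.9 were used.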

Additional observations from a re-analysis of the deposited data

How the results depend on the processing

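With 1 pooled library per genotype, neither animal nor library variation can be separated from genotype. No paired analysis was possible because each genotype has 1 library. Scaling and the length steps moved the values, and the cause was not tested. As deposited, without centring, the members' median log2 ratio was 0.23, and complexes II, III, IV and V had 0.0021, -0.057, 0.25 and 0.26. With equal summed FPKM these were 0.0725, then -0.16, -0.22, 0.092 and 0.10. With equal sums after leaving out Mup genes and the mitochondrial genome they were 0.19, then -0.042, -0.10, 0.21 and 0.21. After the running median over transcript length the members' median was 0.10, with 0.10 for complex IV and 0.10 for complex V, and over coding length it was 0.084, with 0.075 and 0.17. The 4 members at least 1.5-fold higher became 0 as deposited, 0 with equal sums, with or without those genes, and 0 after coding length. The count was 1 with equal upper quartiles, Atp5j, and 1 after transcript length. The latter was Atp5g1 (0.62), which was not among those 4. At a relative log2 ratio of at least 0.32 the count was 26 and at 2-fold 0. With equal sums 1 member, Sdha, was 1.5-fold lower. Pseudocounts of 0.1 and 0.5 FPKM, no minimum, a minimum of 5 FPKM and summed rows left between 36 and 40 members above 0. Leaving out Atp5s, Atp5sl, Cox4nb and Atp5l2 was chosen after seeing the data.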

Other observations

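Subunits of complex I, taken by symbol, divided by size as those of complexes II to V did. The 30 with under 750 coding bases had a median relative log2 ratio of 0.41, and the 7 larger ones 0.07. As deposited, 27 of the 30 small and 1 of the 7 large genes were higher in the knockout library, and with equal summed FPKM 20 and 1. The size limit was chosen after the values were seen. Cytosolic ribosomal protein genes stood above the respiratory genes. Of 80 such genes, 35 were at least 1.5-fold higher relative to the all-gene median, beside 6.73% of all genes tested. Rps14 was highest (762 FPKM in wild type and 1283 in knockout, 0.90). The list median of 0.55 became 0.34 after the running median over coding length and 0.28 over transcript length.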
